A study of Homo sapiens with 29 samples.

Results

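The genes described here encode the cytosolic translation initiation factors (eIF1 to eIF6) and elongation factors (eEF1 and eEF2), together with the kinases and methyltransferases that carry their symbols. They were found by symbol, as features of both count tables whose name starts with EIF and a digit from 1 to 6 or with EEF and 1 or 2. Pseudogenes (152) and antisense or divergent transcripts (6) were left out. This gave 66 members of 63677 features, of which 52526 had a symbol. The 3 eIF4E-binding proteins, EIF4EBP1, EIF4EBP2 and EIF4EBP3, are described apart. No values are given for 1 Y-linked member, so that 65 members have values.

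Translation of most mRNAs starts at the cap, where the binding protein eIF4E, a helicase of the eIF4A family and the scaffold eIF4G assemble. The eIF4E-binding proteins compete with eIF4G for eIF4E, and the kinase TOR phosphorylates them and so releases eIF4E. The factor eIF2 brings the initiator tRNA, eIF2B recharges it with GTP, and kinases that phosphorylate its alpha subunit under stress slow initiation. Elongation uses eEF1A, which delivers aminoacyl-tRNA, and eEF2, which moves the ribosome along the mRNA. Many mRNAs of this machinery begin with a cytosine and a run of pyrimidines, a feature known to make their translation depend on TOR.

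The 29 libraries hold total RNA of C4-2, a castration-resistant prostate cancer line derived from LNCaP, and of 22Rv1, a prostate cancer line from a relapsed xenograft, both grown in hormone proficient medium per the labels. The C4-2 groups, of 3 libraries each, were CC-115+Enza, CC-223+Enza, NU7441+Enza, Enza, CC-115, CC-223, NU7441 and untreated (Ctrl), and the 22Rv1 groups were CC-115 (2 libraries) and untreated (Control, 3 libraries). Treatment with any compound lasted 24 h at 1 µM. NU7441 inhibits the kinase DNA-PK, CC-115 is known to inhibit DNA-PK and TOR, CC-223 is labelled a TOR kinase inhibitor, and enzalutamide (Enza) is an antiandrogen drug. The labels name no vehicle for the untreated cells and do not say whether the libraries of a group came from separate cultures, so that p-values measure the spread between these libraries only. The compounds share their untreated libraries, and no likeness between their effects is drawn from that.

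Total counts were 29580404 to 44864694 per C4-2 library and 31606952 to 44912917 per 22Rv1 library. The luminal genes FOLH1, KLK2, KLK3, HOXB13, KRT8, KRT18 and EPCAM were present in every library of both lines, while the leukocyte genes PTPRC and CD3E stayed at or under 0.207 and 0.0334 counts-per-million units (CPM), the stromal genes DCN and LUM at or under 0.162 and 1.64, COL1A1 and COL3A1 at or under 12.1 and 2.95, and the endothelial gene VWF at or under 4.58. The libraries Enza 1 and CC-115+Enza 1 stood apart from their group mates: the SD of their log2 differences from those mates was 0.457 and 0.446, against 0.091 to 0.277 in the other C4-2 libraries. They enter every C4-2 result through the shared estimate of spread, so counts are also given without both. The members took 2.23% ± 0.369 of the counts (SD, n = 3) in CC-115+Enza, 2.33% ± 0.035 in CC-223+Enza, 2.12% ± 0.032 in NU7441+Enza and 1.98% ± 0.132 in Enza. Without Enza the share was 2.495% ± 0.014 in CC-115, 2.20% ± 0.029 in CC-223, 2.10% ± 0.087 in NU7441 and 2.01% ± 0.057 in Ctrl. In 22Rv1 it was 2.51% ± 0.021 in CC-115 (n = 2) and 2.11% ± 0.041 in Control (n = 3). EEF1A1 and EEF2 together took 1.56% in CC-115 and 1.13% in Control of 22Rv1. This difference lay in EEF2, with 9462 and 11770 CPM in CC-115 against 4272, 4381 and 4871 in Control. EEF1A1 overlapped between the groups, at 6398 and 5786 CPM in CC-115 and 6923, 5739 and 6406 in Control. In C4-2 EEF1A1 and EEF2 together took 1.06% in CC-115 and 0.781% in Ctrl, a part of the difference there. Small RNA also took a larger share with CC-115, 5.56% to 5.96% in CC-115 and 4.08% to 4.22% in Ctrl libraries of C4-2, and 15.9% and 17.3% in CC-115 against 10.9% to 11.9% in Control libraries of 22Rv1. With small and mitochondrial RNA removed before scaling, 45 members were called with CC-115 in C4-2 and 38 in 22Rv1, against 44 and 36 with all RNA kept. Of all features 54.9% and 41.7% were then called, against 53.6% and 40.9%.

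The annotated start of transcription is shown for members named in the results, because it is where the pyrimidine run lies. They were picked after their values were seen, to show starts with and without the run. Starts and bases are those of RefSeq on GRCh38.p14, and 52 of the members and 2 eIF4E-binding proteins had one in the table used. Each line gives 10 bases before and 20 bases from the start, and capitals mark the pyrimidine run that begins with C at the start itself.
EIF4A2 (chr3:186783567-186783596, plus strand): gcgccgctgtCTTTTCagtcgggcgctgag
EEF2 (chr19:3985444-3985473, minus strand): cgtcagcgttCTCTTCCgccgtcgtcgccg
EIF3F (chr11:7987327-7987356, plus strand): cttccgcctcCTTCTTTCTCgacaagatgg
EIF4B (chr12:53006446-53006475, plus strand): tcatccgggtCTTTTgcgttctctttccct
EIF2A (chr3:150546777-150546806, plus strand): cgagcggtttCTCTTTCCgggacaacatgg
EIF3D (chr22:36529147-36529176, minus strand): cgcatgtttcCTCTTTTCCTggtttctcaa
EIF2D (chr1:206612446-206612475, minus strand): ccagccgggcCCTTTTCgcggccgggcccc
EEF1A1 (chr6:73521013-73521042, minus strand): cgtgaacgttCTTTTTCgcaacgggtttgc
EEF1B2 (chr2:206159885-206159914, plus strand): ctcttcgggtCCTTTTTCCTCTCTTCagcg
EIF4E (chr4:98929114-98929143, minus strand): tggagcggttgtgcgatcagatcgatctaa
EIF4EBP2 (chr10:70404135-70404164, plus strand): gccttcgcccgcttccggtcgtcgtcgtcg
EIF4A3 (chr17:80147109-80147138, minus strand): cggcagcggcacagcgaggtcggcagcggc
EIF5A2 (chr3:170908618-170908647, minus strand): cccgtctcttggaactgccgcggccgccac
EIF1 (chr17:41688875-41688904, plus strand): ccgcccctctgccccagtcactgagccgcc
EIF2AK3 (chr2:88627445-88627474, minus strand): tgtccgagataggctgtcactcaggtggca
EIF3C (chr16:28688548-28688577, plus strand): tcccacccccgtggcaggcagccctgcacc
The first 7 genes rose with CC-115 in C4-2, EEF1A1 and EEF1B2 were not called, and of the last 7, whose starts hold no such run, EIF1, EIF2AK3 and EIF3C rose and the other 4 fell. The choice of genes sets this split, and counts over all members with a start are given further on. A start with C and at least 4 further pyrimidines was found in 13 of the 54 genes with a start (24.1%), against 5.1% of the 27305 genes of all kinds in the table. A gene counted if any of its annotated starts had the run, so genes with more starts had more chances to count. EEF1B2, shown by its start with the run, and EIF2S3B also have an annotated start without it.

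In untreated cells the elongation factors stood highest. On the scale of TMM-scaled CPM per kb of exons, EEF1A1 had 946 ± 82.7 and EEF2 658 ± 12.01 in C4-2 Ctrl (mean ± SD, n = 3), and 1069 ± 99.9 and 1119 ± 79.2 in 22Rv1 Control. The next in C4-2 was EIF3I, an eIF3 subunit, at 195 ± 10.9, whose libraries overlapped those of EEF1B2 at 175 ± 15.4, the exchange factor of eEF1A. On this scale the cap-binding protein EIF4E stood far lower, at 8.25 ± 0.894 in C4-2 and 1.73 ± 0.390 in 22Rv1. EIF4EBP1 stood at 114.9 ± 7.51 and 105 ± 7.93. The scale divides by exonic length, 14067 bases for EIF4E and 1073 for EIF4EBP1. Undivided counts overlapped in C4-2 Ctrl, at 4324, 3655 and 3729 for EIF4E and 4252, 4090 and 4096 for EIF4EBP1. The C4-2 gap between them thus rests on the divisor. In 22Rv1 Control EIF4E was lower in counts too, at 1204, 1274 and 588 against 4838, 4946 and 4007. In the order of the 68 genes with values, 49 neighbouring pairs overlapped between libraries in C4-2 Ctrl and 48 in 22Rv1 Control, so that most neighbours cannot be ranked. Each table was scaled separately, and no test was made of levels between the lines.

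Some levels cannot be read as the gene's own. EEF1G, a subunit of the eEF1 complex, had 53 counts in all 29 libraries together. It shares 99.2% of its exonic length with ENSG00000255508 on the same strand, and that feature had 2419, so no level of EEF1G is read here. EIF3C had 7560 counts and its near-identical copy EIF3CL 316, and EIF3C stood at 0.436 ± 0.0646 CPM per kb beside 195 ± 10.9 for EIF3I of the same complex in C4-2 Ctrl. EIF4A1 shares 48.6% of its exons with a feature on its strand and had 25772 counts, against 797255 for EIF4A2, whose exons overlap small nucleolar RNA features over 10.4% of their length. Values of these and of EEF1E1, EEF1E1-BLOC1S5, EIF6, EIF2S3B, EIF5AL1 and EEF1AKMT2 are uncertain for this reason. The strand setting of the counting is not given in the sources used here, and 9 further members, among them EEF1AKMT3, EIF2AK3 and EIF5B, have at least 10% of their exons opposite another feature.

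**Figure D1:**
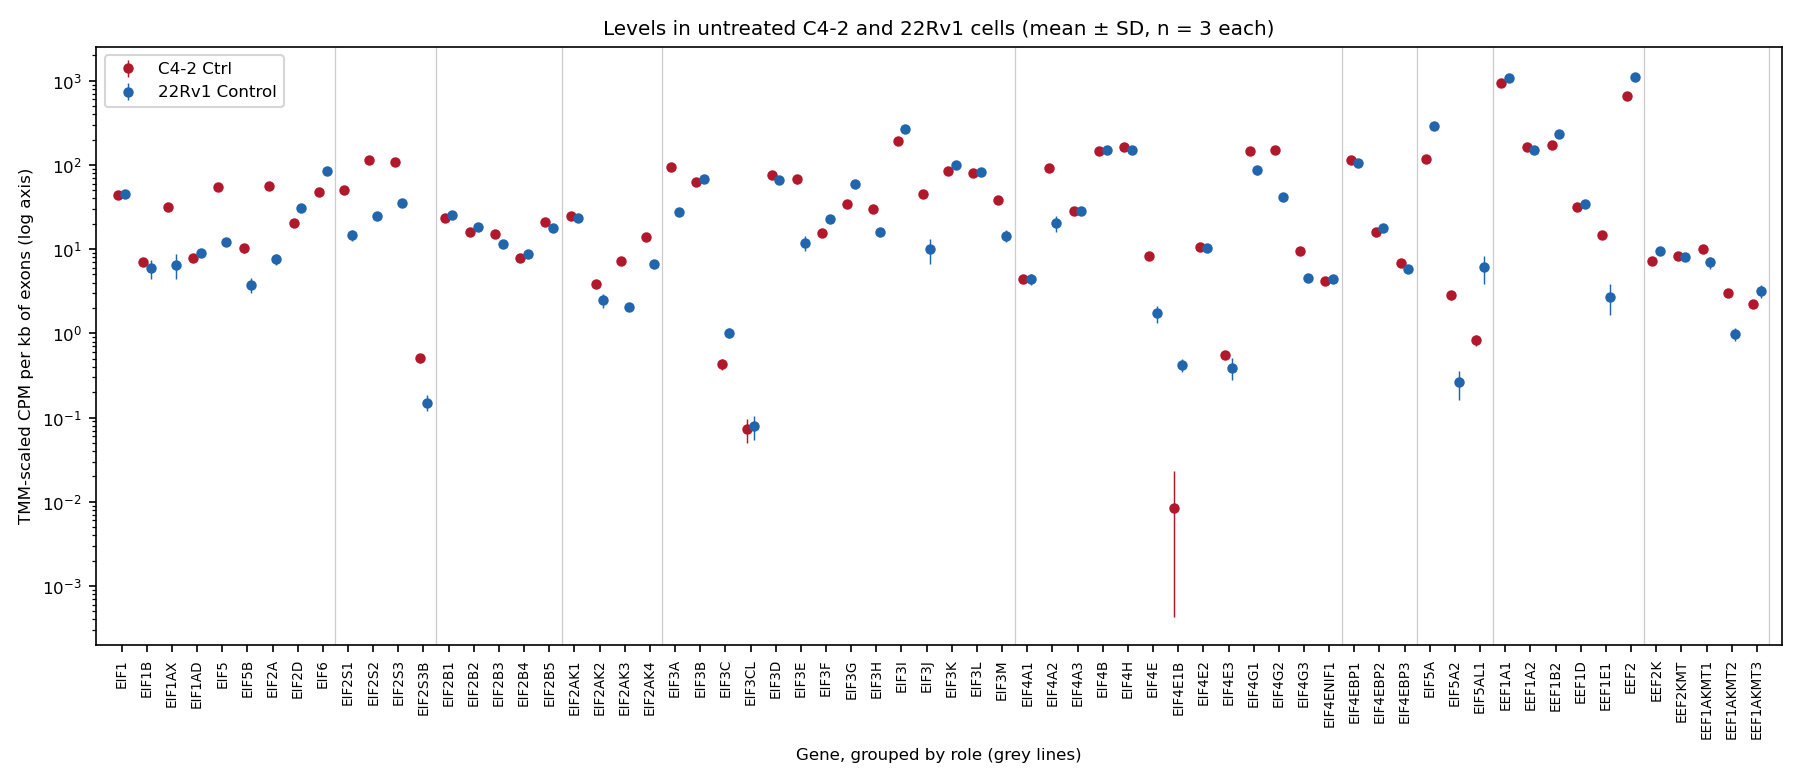
Levels in untreated C4-2 (Ctrl) and 22Rv1 (Control) cells as TMM-scaled CPM per kb of exons on a log axis, with points for means and bars for SD (n = 3 each), genes grouped by role. EEF1A1 and EEF2 lie highest in both lines, and the lower bar of EIF4E1B, whose SD exceeds its mean in C4-2, is cut short.

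CC-115 moved most of the family in C4-2 (log2 fold changes ± SE are CC-115 over Ctrl, called at an adjusted p under 0.05 by edgeR's quasi-likelihood test with Benjamini-Hochberg adjustment over all features). Of 62 members tested 25 rose and 19 fell, 71% of them, against 53.6% of all 22860 features. The median log2 fold change was 0.05 over the members and 0.03 over all features, and 27.6% of all features rose and 26% fell. Calls also depend on how abundant a gene is, which the share over all features does not adjust for. Without Enza 1 and CC-115+Enza 1, 27 rose and 23 fell, against 63.7% of all features called (7538 rose and 7179 fell).

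At the cap-binding step EIF4E fell and a helicase gene rose. EIF4E (ENSG00000151247, chromosome 4, 99792835 to 99851788 in hg19) had 49.95, 46.6 and 47.9 CPM in CC-115 libraries, against 129, 115.3 and 104 CPM in Ctrl libraries. The groups were far apart, and EIF4E fell by 1.27 ± 0.16 on the log2 scale (adjusted p = 2.03e-07). EIF4A2 (ENSG00000156976, chromosome 3, 186500994 to 186507689), the second eIF4A helicase, had 1855, 1708 and 1835 CPM in CC-115 and 609, 546 and 545 CPM in Ctrl. It rose in every library, by 1.67 ± 0.17 (adjusted p = 9.01e-09), while its paralog EIF4A1 stood at 23.4, 23.6 and 23.4 CPM in CC-115 and 23.1, 21.9 and 25.3 in Ctrl, with overlapping groups (0.00 ± 0.08). EIF4A3, the paralog that works in the exon junction complex, fell by 0.99 ± 0.14. EIF4B, which stimulates the helicase, rose by 0.79 ± 0.16, and the scaffold EIF4G1 fell by 0.46 ± 0.13. In all, 5 of 12 genes of this step rose (EIF4A2, EIF4B, EIF4E3, EIF4G3 and the eIF4E transporter EIF4ENIF1) and 6 fell (EIF4E, EIF4E2, EIF4A3, EIF4H, EIF4G1 and EIF4G2). Of all features 27.6% rose and 26% fell.

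Of the 3 eIF4E-binding proteins 2 fell, against 26% of all features. EIF4EBP2 (ENSG00000148730, chromosome 10, 72164135 to 72188374) had 51.1, 52.6 and 49.6 CPM in CC-115, against 112, 119 and 115.3 in Ctrl, a fall by 1.18 ± 0.11 (adjusted p = 6.1e-10). EIF4EBP1 (ENSG00000187840, chromosome 8) had 68.7, 71.5 and 69.2 CPM in CC-115 and 127, 129 and 114 in Ctrl and fell by 0.82 ± 0.12. Neither pair of groups overlapped. EIF4EBP3 was far lower, at 6.26, 6.85 and 6.18 CPM in CC-115 and 5.28, 4.23 and 4.68 in Ctrl (0.44 ± 0.22, adjusted p = 0.0923), and 74.7% of its exonic length is shared with ANKHD1.

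Factors of start-site selection and eIF2 split. EIF1, which guards the choice of the start codon, had 278, 269 and 273 CPM in CC-115 and 140, 162 and 175 in Ctrl and rose by 0.78 ± 0.12. EIF1AX, its partner on the small subunit, fell by 0.75 ± 0.14 and EIF5B, which joins the subunits, by 0.49 ± 0.13. EIF5, EIF2A and EIF2D also rose, which makes 4 rises and 2 falls among 9, against 27.6% and 26% of all features. The alpha and beta subunits of eIF2, EIF2S1 and EIF2S2, fell (−0.57 ± 0.15 and −0.48 ± 0.15), and the gamma subunit EIF2S3 was not called (−0.02 ± 0.16). Among the 5 eIF2B subunits EIF2B2 (0.75 ± 0.14) and EIF2B4 rose and EIF2B3 (−0.30 ± 0.12) fell.

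The kinases of eIF2 alpha went in both directions, where 27.6% of all features rose and 26% fell. EIF2AK3, the kinase PERK that senses stress in the endoplasmic reticulum, had 83.1, 80.0 and 78.3 CPM in CC-115, against 41.1, 37.2 and 38.6 in Ctrl. Every CC-115 library lay above every Ctrl library, with a log2 fold change of 1.05 ± 0.10 (adjusted p = 9.01e-10). EIF2AK1, the heme-regulated kinase, also rose (0.26 ± 0.11). EIF2AK2, the kinase PKR that senses double-stranded RNA, and EIF2AK4, the kinase GCN2 that senses uncharged tRNA, fell (−0.40 ± 0.09 and −0.28 ± 0.09).

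In the eIF3 scaffold 7 of 14 genes rose and none fell, against 27.6% and 26% of all features. EIF3C had 14.9, 14.6 and 15.1 CPM in CC-115 and 2.65, 2.93 and 3.54 in Ctrl (2.29 ± 0.21, adjusted p = 7.89e-10), and its copy EIF3CL rose too. Both are among the 7, and their values are uncertain as given above. EIF3F had 264, 273 and 269 CPM in CC-115 and 150, 150 and 143 in Ctrl (0.86 ± 0.11). EIF3D, EIF3G, EIF3H and EIF3L were the others that rose, between 0.38 (EIF3G) and 0.56 (EIF3D).

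The eIF5A genes, whose product helps ribosomes through difficult peptide bonds, all fell, against 26% of all features. EIF5A2 had 5.81, 4.94 and 6.07 CPM in CC-115 and 17.1, 16.7 and 13.6 in Ctrl, with no overlap (−1.49 ± 0.17, adjusted p = 2.55e-08). EIF5A fell by 0.94 ± 0.12 and its near-identical copy EIF5AL1, whose values are uncertain as given above, by 0.89 ± 0.23.

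Of 6 elongation factors tested 2 rose and 1 fell, against 27.6% and 26% of all features. EEF1A1 had 6389, 6020 and 6182 CPM in CC-115 and 6137, 5574 and 5157 in Ctrl, and was not called (0.14 ± 0.17, 95% interval −0.21 to 0.49). EEF2 had 4432, 4634 and 4756 CPM in CC-115, against 2654, 2695 and 2599 in Ctrl, a rise of 0.80 ± 0.15 in groups that did not overlap. EEF1A2, the form of eEF1A known from muscle and nerve, rose by 0.46 ± 0.13, EEF1B2 was not called (0.19 ± 0.16), and EEF1E1, which is part of the tRNA synthetase complex, fell by 1.15 ± 0.23. EEF2K, which phosphorylates and inhibits eEF2, rose by 0.34 ± 0.11, a call lost without Ctrl 3 (edgeR, adjusted p = 0.0811). The lysine methyltransferase of eEF1A encoded by EEF1AKMT3 had 21.8, 24.4 and 24.0 CPM in CC-115 and 7.22, 7.41 and 6.35 in Ctrl (1.75 ± 0.12). EIF6, which keeps the large subunit from joining too early, was not called (−0.01 ± 0.14). The 18 tested members that were not called with CC-115 lay between −0.37 and 0.19. Over all 14 comparisons 8 members were never called: EEF1A1, EEF1B2, EIF1B, EIF2S3, EIF2S3B, EIF3M, EIF4A1 and, tested only in 22Rv1 and the joint fit, EIF4E1B. EEF1G, EIF4E1B and EEF1E1-BLOC1S5, which had 0 counts, were not tested in C4-2.

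**Figure D2:**
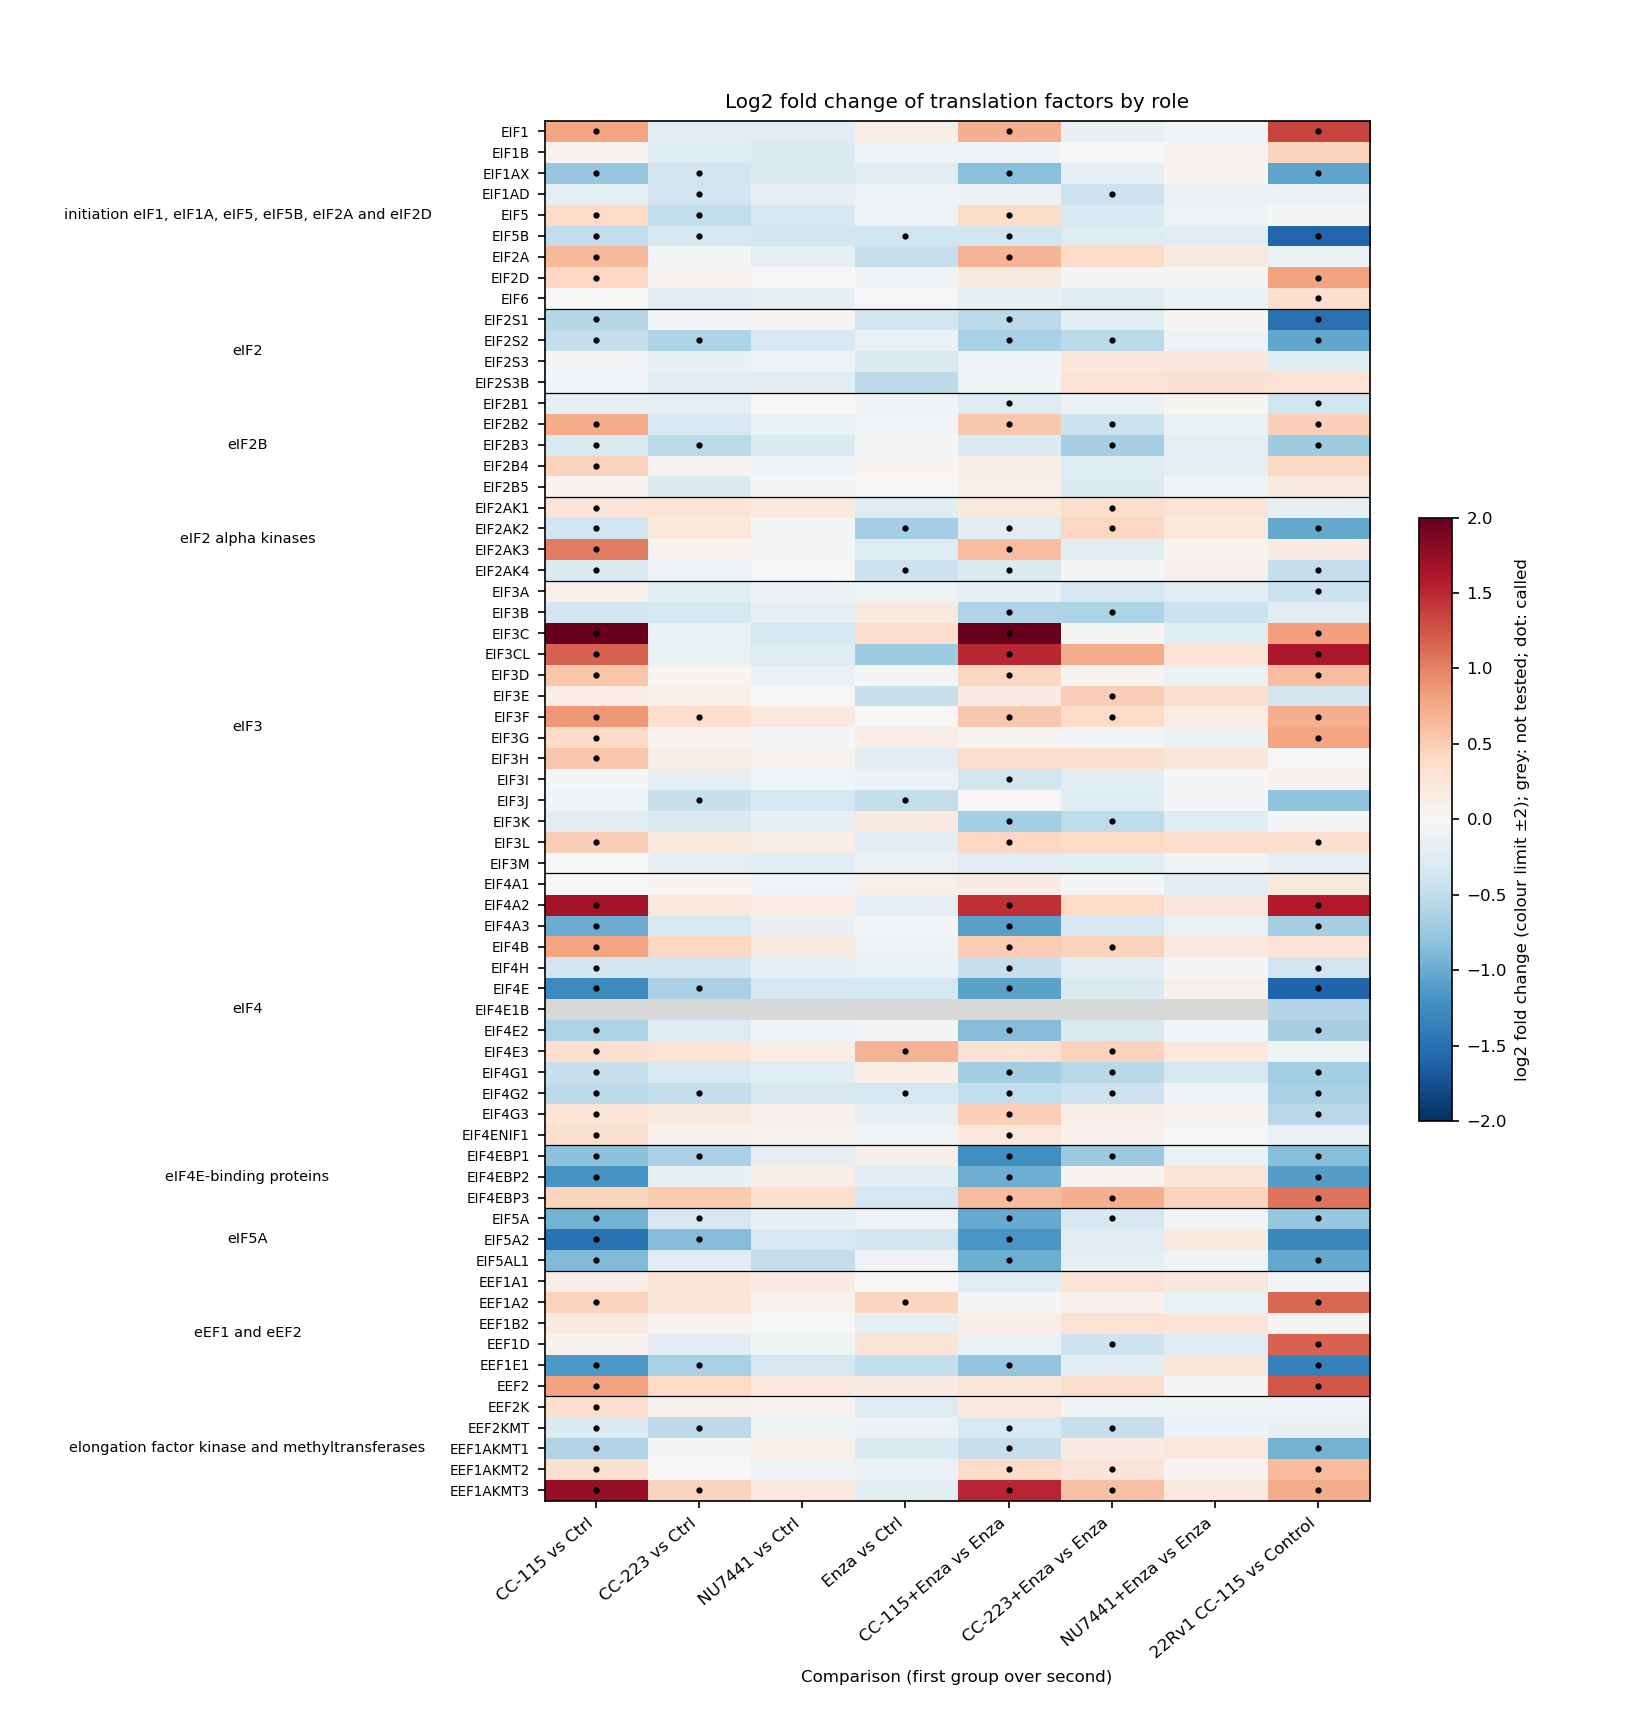
Log2 fold changes of 62 members (63 in 22Rv1) and the 3 eIF4E-binding proteins in 8 comparisons, first group over second, with genes grouped by role, colour limits at 2 and dots on called changes. CC-115 columns hold the most dots, in both colours, and the NU7441 columns hold none.

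With CC-223, 2 members rose and 13 fell of 62 (24.2%), against 23.9% of all features. Rises made up 12.9% and falls 10.9% of all features, so the share called was near the background while the split was 2 to 13. The direction of the background depended on the processing. With median-of-ratios scaling 2488 features rose and 2935 fell, and with small and mitochondrial RNA removed 2466 and 3342. Members then split 1 to 15 and 2 to 19. With no filter 2599 features rose and 2473 fell, and without Enza 1 and CC-115+Enza 1 5188 and 4712. EIF4E had 76.4, 69.4 and 75.2 CPM in CC-223 and 129, 115.3 and 104 in Ctrl (−0.66 ± 0.16), lying between the CC-115 and the Ctrl libraries with no overlap. EIF5A2 (−0.86 ± 0.16), EEF1E1 (−0.65 ± 0.22), EIF2S2 (−0.62 ± 0.15) and EIF2B3 (−0.53 ± 0.12) were the other largest falls, and EEF1AKMT3 (0.45 ± 0.12) and EIF3F (0.33 ± 0.11) the 2 rises, the call of EIF3F being lost without any 1 of the 6 libraries compared. The call of EEF1E1 was lost without Ctrl 1, CC-223 2 or CC-223 3, and that of EEF1AKMT3 without Ctrl 3 or CC-223 3. EIF4EBP1 had 77.2, 76.0 and 83.5 CPM in CC-223 and fell by 0.64 ± 0.12, whereas EIF4EBP2 stood at 99.8, 109 and 105 CPM, near its Ctrl level (−0.14 ± 0.10, 95% interval −0.36 to 0.07). The count rests on the estimate of spread: without Enza 1 and CC-115+Enza 1, 12 members rose and 30 fell, against 42.8% of all features called.

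No member was called with NU7441 by edgeR, against 3.39% of all features. At an unadjusted p under 0.05 there were 7 (EIF4G2, EIF5B, EIF3J, EIF5, EIF2B3, EIF1AX and EIF4E), all with negative values, and DESeq2 called 2. Values over the members ran from −0.47 to 0.21. EIF4E had 96.7, 85.3 and 93.3 CPM in NU7441, below every Ctrl library (−0.34 ± 0.16, adjusted p = 0.265). EIF4EBP1 had 119, 99.9 and 106 CPM with overlapping groups (−0.19 ± 0.12, adjusted p = 0.449). Without Enza 1 and CC-115+Enza 1, 4 members rose and 19 fell with NU7441, against 21.7% of all features called (2407 rose and 2604 fell).

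At the same dose and time the inhibitors differed in named members. CC-115 over CC-223 had 20 members higher and 10 lower (48.4%), against 43.1% of all features (20.5% higher and 22.7% lower). There were 46 in all without Enza 1 and CC-115+Enza 1, against 56.3%. With median-of-ratios scaling 4969 features were higher and 4730 lower, and with small and mitochondrial RNA removed 4873 and 5062. EIF3C (2.43 ± 0.21), EIF4A2 (1.45 ± 0.17), EEF1AKMT3 (1.30 ± 0.12), EIF2B2 (1.05 ± 0.14), EIF1 (1.00 ± 0.12) and EIF2AK3 (1.00 ± 0.10) were higher with CC-115. EIF4EBP2 (−1.03 ± 0.11), EIF4A3 (−0.68 ± 0.14), EIF5A2 (−0.63 ± 0.17), EIF4E (−0.61 ± 0.16) and EIF2AK2 (−0.61 ± 0.09) were lower. For EIF4EBP1 no difference was called, with a value of −0.18 and a 95% interval of −0.42 to 0.07. Against NU7441, CC-115 had 21 members higher and 11 lower (51.6%), against 49% of all features (24.5% in each direction). The largest differences were EIF3C (2.64 ± 0.21), EEF1AKMT3 (1.55 ± 0.12) and EIF4A2 (1.51 ± 0.17) above and EIF4EBP2 (−1.29 ± 0.11) and EIF5A2 (−1.19 ± 0.17) below. Without the libraries that stood apart 30 members were higher and 18 lower. Of all features 60% were then called, 6885 higher and 6974 lower.

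**Figure D3:**
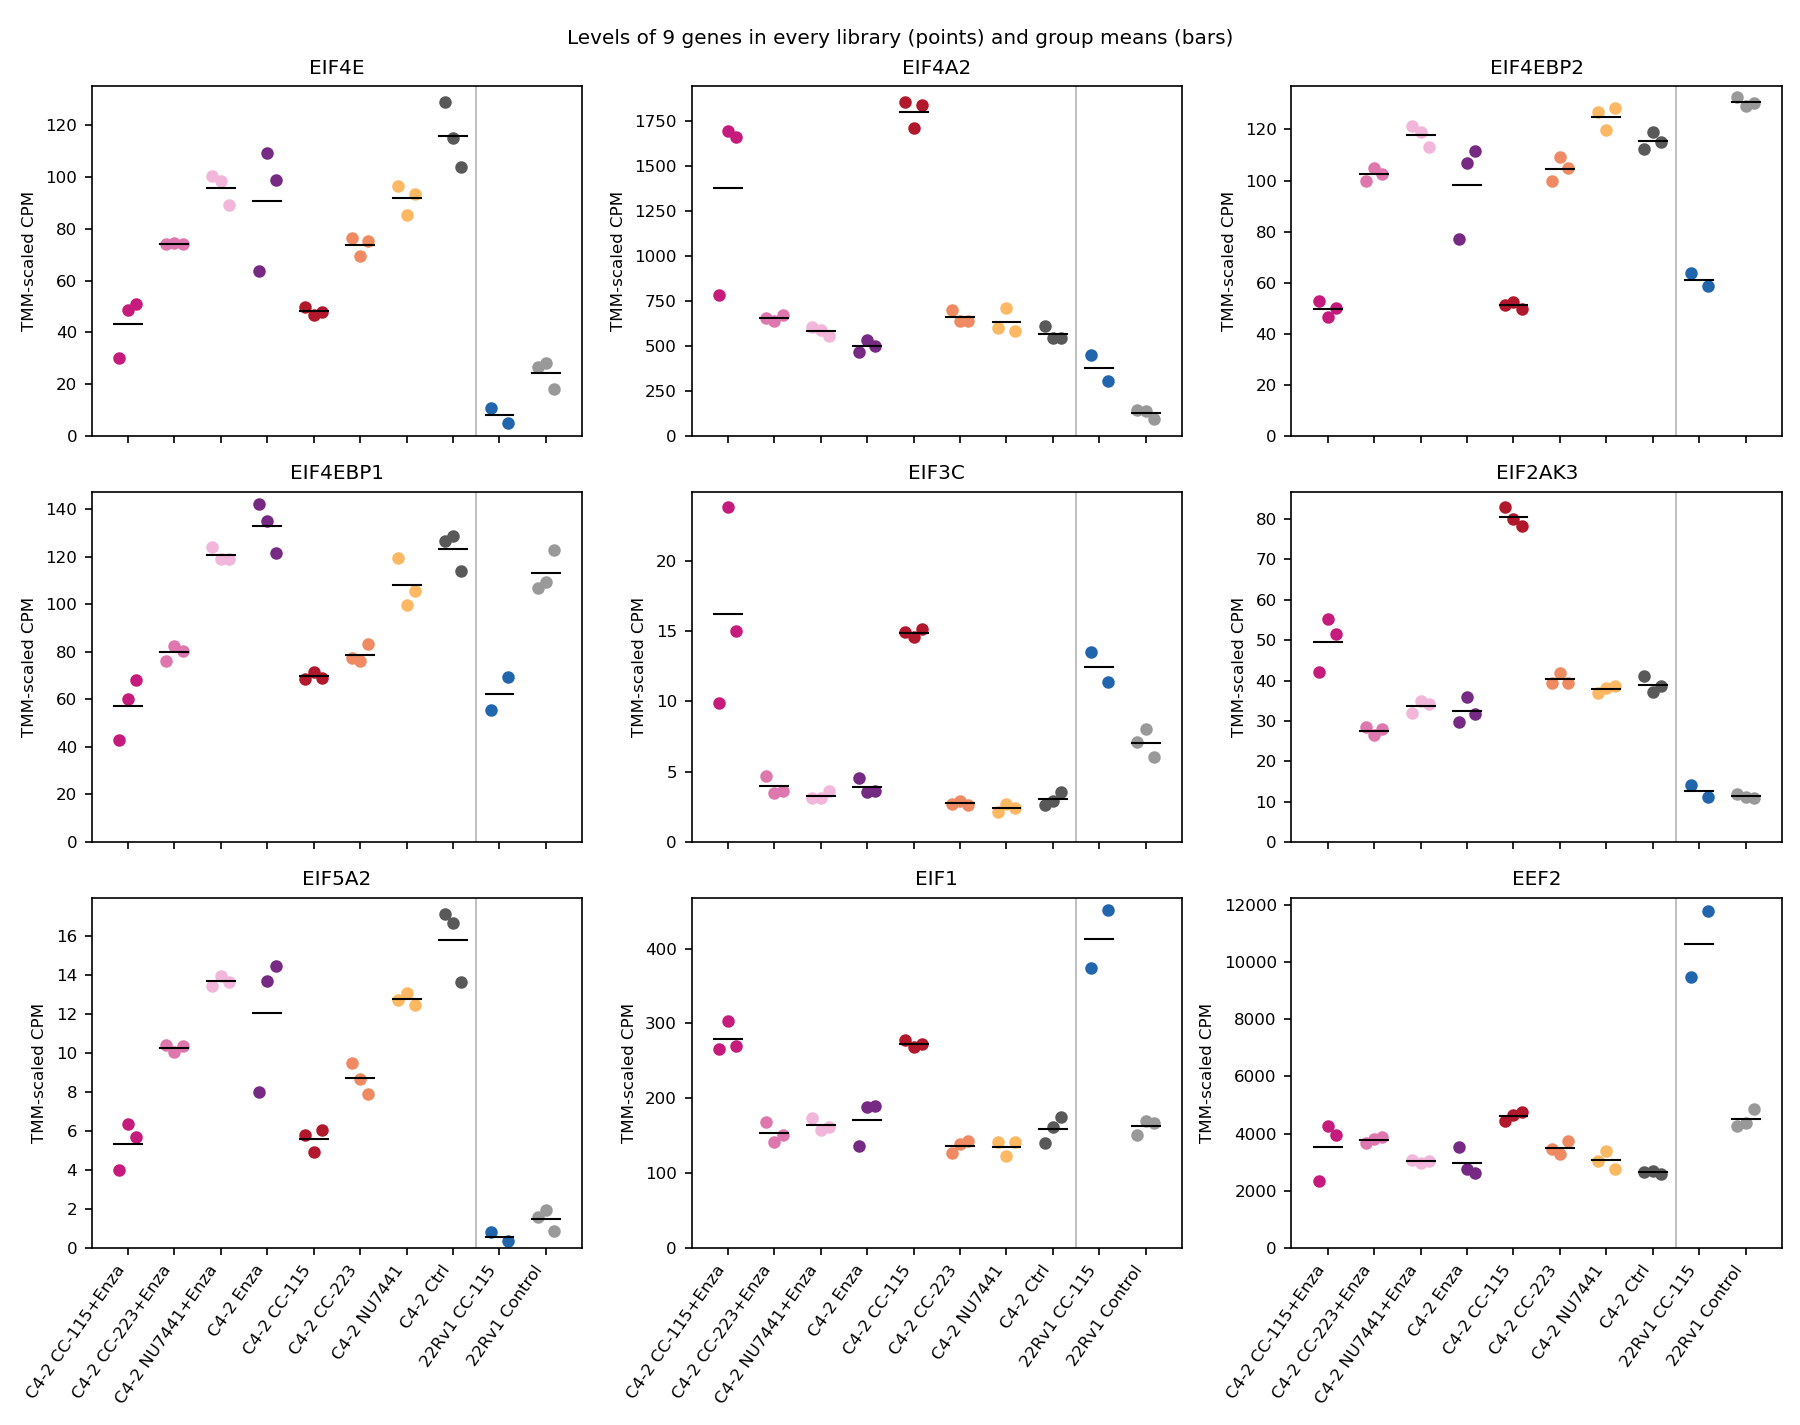
TMM-scaled CPM of 9 genes in every library (points) with group means (bars), for the 8 C4-2 groups and, right of the grey line, the 2 groups of 22Rv1. EIF4E and EIF5A2 are lowest in the CC-115 groups of each line, and EIF4A2 and EIF1 highest there, with Enza 1 and CC-115+Enza 1 away from their group mates in several panels.

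Enza alone changed 7 members: 2 rose and 5 fell of 62 (11.3%), against 16.1% of all features (9.35% rose and 6.75% fell). With small and mitochondrial RNA removed 1824 features rose and 2300 fell, and without Enza 1 and CC-115+Enza 1 2228 and 2710. With no filter 2053 rose and 1763 fell, so the direction of the background depended on the processing. EIF4E3, a cap-binding protein of another class, had 7.47, 10.8 and 10.4 CPM in Enza, against 5.94, 5.71 and 6.35 CPM in Ctrl. The groups did not overlap, and it rose by 0.67 ± 0.13 (adjusted p = 0.000532). With only the groups compared in the fit the call of EIF4E3 was lost (edgeR, adjusted p = 0.0599). EIF2AK2 had 22.3, 26.7 and 28.4 CPM in Enza and 44.3, 40.6 and 39.0 in Ctrl and fell by 0.68 ± 0.09 (adjusted p = 4.96e-06), also without overlap. EIF2AK4 (−0.43 ± 0.09), EIF3J (−0.47 ± 0.13), EIF5B (−0.39 ± 0.13) and EIF4G2 (−0.35 ± 0.11) fell, and EEF1A2 (0.42 ± 0.13) rose. Without Enza 1 the calls of EIF3J, EIF5B and EIF4G2 were lost, that of EIF5B also without Ctrl 3 or without both libraries that stood apart, and that of EIF4G2 without Ctrl 1. Library Enza 1, which stood apart, held 509 CPM of EEF1A2 against 349 and 352 in its mates, and the EEF1A2 call was lost without Enza 1 (0.18) or without any 1 of the Ctrl libraries, though not without Enza 1 and CC-115+Enza 1 together (0.22). Without Enza 1 and CC-115+Enza 1, 3 members rose and 14 fell, against 21.4% of all features called. EIF4E, EIF4EBP1 and EIF4EBP2 were not called (−0.36, 0.11 and −0.23).

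On top of Enza, CC-115 lowered EIF4E, EIF4EBP1 and EIF4EBP2 and raised EIF4A2. With CC-115+Enza over Enza 16 members rose and 22 fell (61.3%), against 58.7% of all features (28.5% rose and 30.2% fell). EIF4E had 30.3, 48.8 and 50.8 CPM in CC-115+Enza and 63.8, 109 and 99.0 in Enza, and fell by 1.07 ± 0.16 without overlap. EIF4A2 had 783, 1690 and 1659 CPM in CC-115+Enza and 467, 532 and 497 in Enza (1.47 ± 0.17), and its first library, CC-115+Enza 1, lay far below its mates though above every Enza library. EIF4EBP1 fell by 1.22 ± 0.12 and EIF4EBP2 by 0.98 ± 0.11, and EIF5A2, EIF4A3 and EIF5A fell by 1.17 ± 0.17, 1.08 ± 0.14 and 1.01 ± 0.12. EIF4EBP3 rose (0.64 ± 0.22), a call lost without Enza 1 (0.42, edgeR adjusted p = 0.0887). EEF1A1 stood at 2851, 5800 and 5866 CPM in CC-115+Enza and 5885, 5844 and 5190 in Enza, low only in the library that stood apart (−0.22 ± 0.17, not called). Without that library and Enza 1, 29 members rose and 17 fell, so the majority of falls turned into one of rises. Of all features 57.8% were then called, and 6456 rose and 6899 fell.

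With CC-223+Enza over Enza 8 members rose and 11 fell (30.6%), against 28% of all features (13% rose and 15% fell). Without the libraries that stood apart 16 rose and 27 fell, against 36.3% of all features called (4026 rose and 4354 fell). EIF4EBP1 had 76.3, 82.6 and 80.5 CPM in CC-223+Enza and 142, 135 and 122 in Enza and fell by 0.74 ± 0.12. EIF2B3 (−0.67 ± 0.12), EIF3B (−0.62 ± 0.17), EIF4G1 (−0.56 ± 0.13), EIF2S2 (−0.55 ± 0.15) and EIF3K (−0.51 ± 0.15) fell. EEF1AKMT3 (0.58 ± 0.12), EIF3E (0.49 ± 0.18), EIF4E3 (0.46 ± 0.12), EIF4B (0.45 ± 0.16) and EIF2AK2 (0.41 ± 0.09) rose. EIF4EBP3 had the largest called rise, 0.72 ± 0.22, a call lost without Enza 1 or without both libraries that stood apart. Those of EIF3E and EIF3K were also lost without Enza 1, and that of EIF4B without Enza 2 or Enza 3. Enza 1 held 930 CPM of EIF3B, beside 511 and 501 in its mates, and without it EIF3B stood at −0.25 and was not called (edgeR, adjusted p = 0.176). It held 1716 CPM of EIF4G1, beside 1149 and 1182, and without it EIF4G1 fell by 0.34. EIF4E was not called there (−0.29 ± 0.16), its 74.0, 74.5 and 74.0 CPM overlapping the 63.8 CPM of Enza 1. With NU7441+Enza over Enza edgeR called no member, against 0.381% of all features, with 6 at an unadjusted p under 0.05 and none by DESeq2. Without the libraries that stood apart it called 2, against 2.59% of all features.

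The interaction terms ask whether an inhibitor acted differently with Enza present. None was called for a member by edgeR, for NU7441, CC-115 or CC-223, against 0%, 3.27% and 0.376% of all features. At an unadjusted p under 0.05 there were 1, 5 and 1 members, and DESeq2 called 0, 1 and 0. Without Enza 1 and CC-115+Enza 1 edgeR called 3 members for CC-115 and 1 for CC-223, against 6.17% and 1.92% of all features, and none for NU7441, against 0.013%. For EIF2AK3 the CC-115 term was −0.43 ± 0.14 (adjusted p = 0.0801), with a CC-115 effect of 0.61 beside Enza and 1.05 without it.

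In 22Rv1, where 2 CC-115 libraries met 3 Control libraries, CC-115 raised 16 members and lowered 20 of 63 (57.1%), against 40.9% of all 19392 features (20.2% rose and 20.7% fell). EIF4E had 10.8 and 5.17 CPM in CC-115 and 26.6, 28.2 and 18.02 in Control and fell by 1.59 ± 0.34 (adjusted p = 0.00737). EIF4A2 had 448 and 307 CPM in CC-115, against 145, 139 and 95.1 in Control, a rise of 1.58 ± 0.22 (adjusted p = 0.0012). Both pairs of groups were separate, though the 2 CC-115 libraries differed from each other. EEF2 had 9462 and 11770 CPM in CC-115 and 4272, 4381 and 4871 in Control (1.24 ± 0.11), and EIF1 375 and 451 in CC-115 and 151, 170 and 166 in Control (1.35 ± 0.12). EEF1D, the other exchange factor subunit of eEF1, rose by 1.18 ± 0.14 and EEF1A2 by 1.15 ± 0.13. EIF5B fell by 1.59 ± 0.27, EIF2S1 by 1.49 ± 0.21, EEF1E1 by 1.35 ± 0.44 and EIF1AX by 1.05 ± 0.32.

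The eIF4E-binding proteins moved in 22Rv1 as well, where 20.2% of all features rose and 20.7% fell. EIF4EBP2 had 63.7 and 58.8 CPM in CC-115 and 133, 129 and 131 in Control (−1.09 ± 0.12). EIF4EBP1 had 55.6 and 69.2 CPM in CC-115 and 107, 110 and 123 in Control (−0.86 ± 0.14). Both fell, and EIF4EBP3 rose by 1.09 ± 0.19. With 1 library left out the count of members called lay between 20 and 38. It was 20 without Control 1, 22 without Control 2 and 23 without CC-115 2. The calls of EEF1E1 and EIF1AX were lost in each of these.

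The effect of CC-115 differed between the lines in 22 of 63 members, in a joint fit of 11 libraries (34.9%, against 27.5% of all features). The lines were counted in separate tables, and small RNA took 11.3% in untreated 22Rv1 and 4.13% in untreated C4-2. A difference between lines therefore cannot be told apart from one between sets of libraries. The effect was higher in 22Rv1 for 8 members and 15.2% of features, and lower for 14 members and 12.3% of features. With median-of-ratios scaling 3083 features were higher and 3119 lower, and with small and mitochondrial RNA removed 3498 and 2845. EEF1D had 633 and 821 CPM in CC-115 and 314, 298 and 348 in Control of 22Rv1. In C4-2 it had 302, 314 and 317 in CC-115 and 303, 297 and 282 in Ctrl, and the difference was 1.15 ± 0.13 (22Rv1 minus C4-2, adjusted p = 3.66e-05). EEF1D also stood at 462 CPM in Enza 1, the library that stood apart, beside 301 and 288 in its mates. EIF3C (−1.42 ± 0.20), EIF5B (−1.04 ± 0.28), EEF1AKMT3 (−0.94 ± 0.23), EIF2S1 (−0.86 ± 0.22), EIF2AK3 (−0.83 ± 0.16) and EIF4G3 (−0.77 ± 0.11) were lower in 22Rv1. EIF2AK3 had 14.0 and 11.2 CPM in CC-115 and 11.9, 11.2 and 10.8 in Control of 22Rv1, with overlap, where C4-2 had the rise given above. Without 22Rv1 CC-115 2 the call of EIF5B was lost, and with no filter those of EIF5B and EIF2S1. EIF4G3 fell in 22Rv1 (−0.55 ± 0.14) and rose in C4-2 (0.27 ± 0.09). For EIF4E, EIF4A2, EIF4EBP1 and EIF4EBP2 no difference was called, with 95% intervals of −0.98 to 0.46, −0.55 to 0.49, −0.28 to 0.30 and −0.10 to 0.37.

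**Figure D4:**
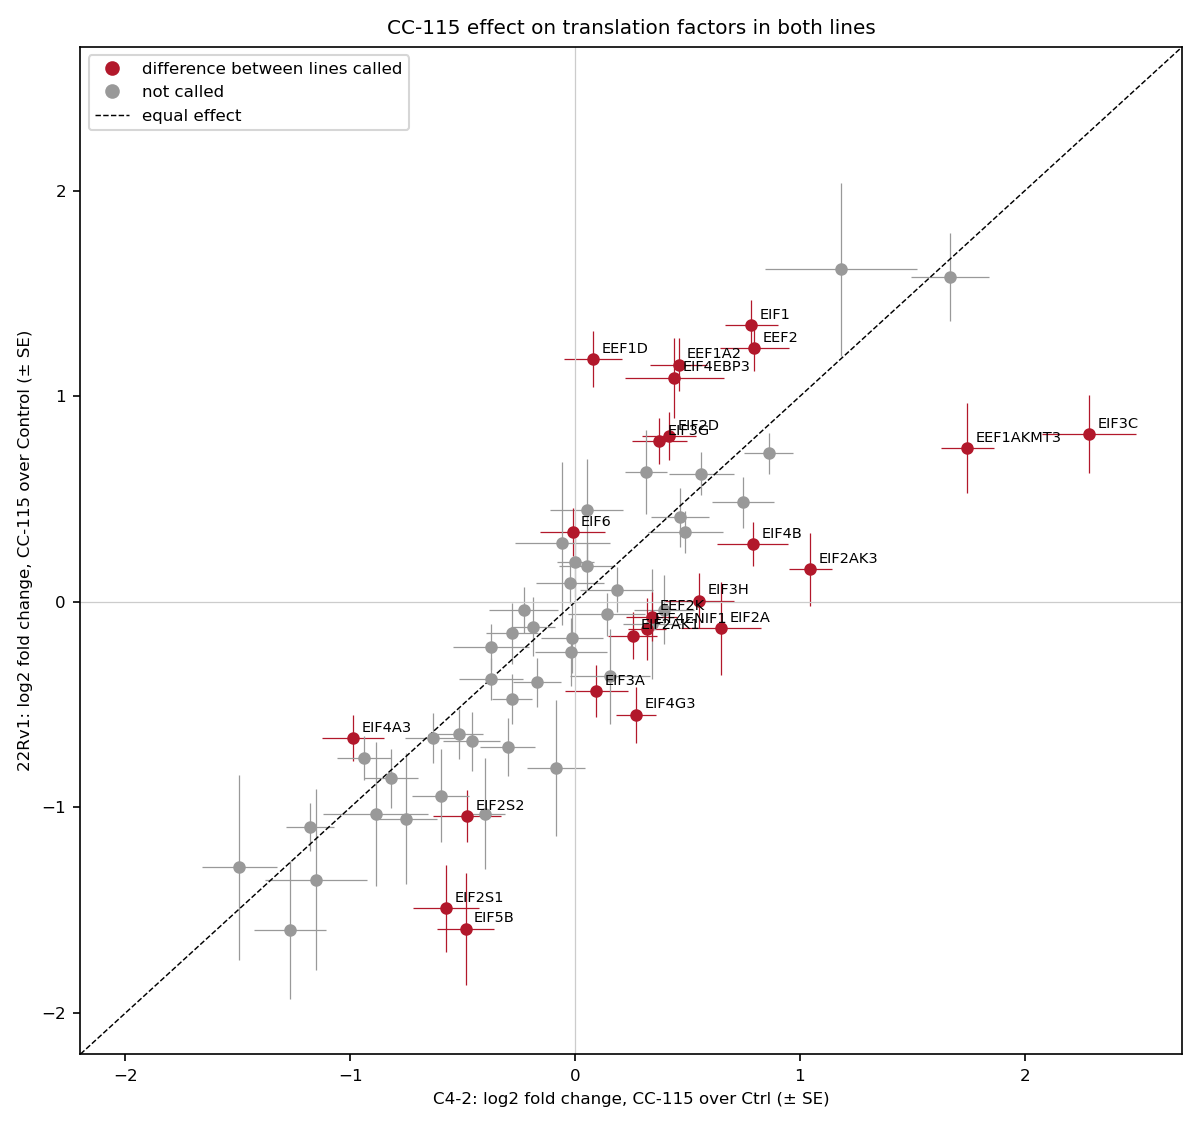
Log2 fold change with CC-115 in 22Rv1 (vertical axis, CC-115 over Control) and in C4-2 (horizontal axis, CC-115 over Ctrl), each gene a point with bars for 1 SE, red and named where the difference between lines was called in the joint fit. EEF1D lies above the line of equal effect, and EIF3C, EEF1AKMT3 and EIF2AK3 lie below it.

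Members with the pyrimidine run at any annotated start were read against those with it at none, called members with another start. With CC-115 in C4-2, 7 of 13 rose and none fell (median log2 fold change 0.42), while 11 of 36 members with another annotated start rose and 16 fell (median −0.18), against 27.6% of all features that rose and 26% that fell. In 22Rv1 5 of 13 rose and none fell (median 0.28), and among 37 with another start 5 rose and 17 fell (median −0.39), against 20.2% and 20.7% of all features. CC-223 raised 1 of the 13 and lowered none (median 0.05), and raised none and lowered 11 of the 36 (median −0.26), against 12.9% and 10.9% of all features. The 6 that were not called in C4-2 with CC-115 were EEF1A1, EEF1B2, EIF2S3, EIF2S3B, EIF3K and EIF3M. The counts describe these genes, no test of the difference was made, and the annotated start need not be the one used in these cells.

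**Figure D5:**
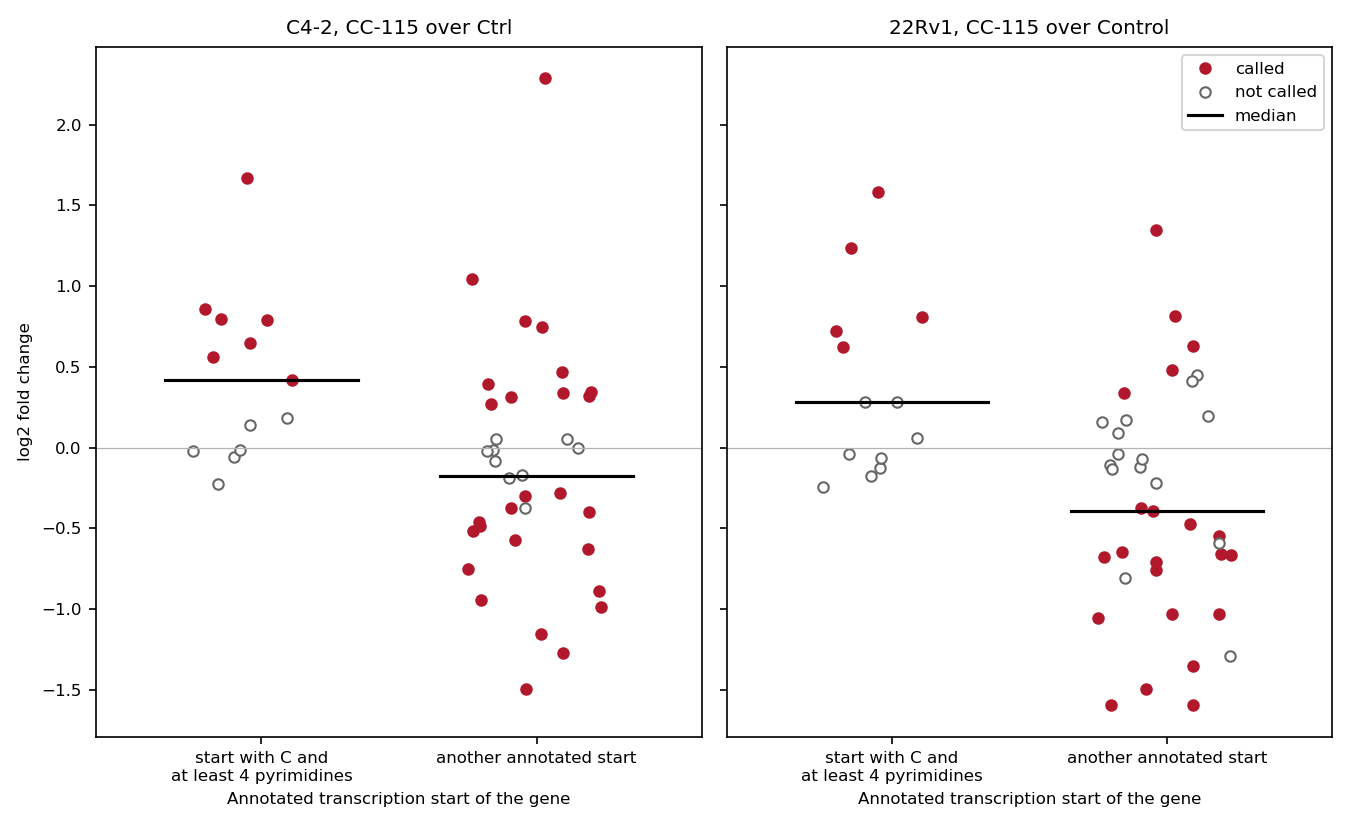
Log2 fold change with CC-115 in C4-2 (left, over Ctrl) and 22Rv1 (right, over Control), each point a gene, filled where called, bars at medians. Groups are members with any annotated start of a C followed by at least 4 pyrimidines, and members with another annotated start. No filled point of the pyrimidine-start genes lies below 0 in either line.

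Strings of known binding sites were searched in the 250 bases before each start, on both strands, with none of them contained in another. CACGTG, the E-box bound by MYC and TFEB among others, was in 24.1% of the 54 genes, against 7.7% of all genes, and CCGGAAG, an ETS site, in 20.4% against 10.2%. TTTGGCGC (E2F) was in 3.7% against 0.7%, TATAAA in 5.6% against 13%, TGATGNAA (the composite site of ATF4 and CEBP proteins) in 1.9% against 3.9%, and GTAAACAA (forkhead) in none against 1.0%. The TTTGGCGC figure rests on a single locus. Its genes were EEF1E1 and EEF1E1-BLOC1S5, with starts at 8102548 and 8102595 on the minus strand of chromosome 6, so their windows overlap. Of the 12 members with CACGTG 3 rose (EEF2K, EIF3F and EIF4B) and 7 fell with CC-115 in C4-2 (EIF2AK2, EIF2B3, EIF4A3, EIF4E, EIF4G1, EIF4H and EIF5A2), against 27.6% and 26% of all features, and 1 rose and 6 fell in 22Rv1, against 20.2% and 20.7%. A matching string is a description of the sequence, not evidence of a bound site.

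Other translation genes give the setting. Of all features CC-115 raised 27.6% and lowered 26% in C4-2, and raised 20.2% and lowered 20.7% in 22Rv1. In C4-2 CC-223 raised 12.9% and lowered 10.9%, Enza raised 9.35% and lowered 6.75%, and 3.39% were called with NU7441. Among 19 genes of termination, poly(A) binding, recycling and helicases, CC-115 raised 1 in C4-2 (PAIP2B, 0.96 ± 0.11) and lowered 8, led by the recycling and helicase genes DENR (−0.83 ± 0.13), DDX3X (−0.82 ± 0.13) and ABCE1 (−0.82 ± 0.16). In 22Rv1 2 rose and 12 fell, led by DDX3X (−1.79 ± 0.22). Among 16 genes of TOR and eIF2 alpha signalling 5 rose and 5 fell in C4-2. PPP1R15A, the stress-induced regulator of the eIF2 alpha phosphatase, rose by 2.90 ± 0.23 and the TOR-restraining DDIT4 fell by 3.17 ± 0.18, while DDIT3, which encodes CHOP, rose by 2.37 ± 0.18. With CC-223 2 of these 16 rose and 8 fell, led by CHAC1 (−2.87 ± 0.18) and DDIT4 (−1.44 ± 0.16), and with NU7441 CHAC1 alone fell (−1.03 ± 0.15). Of 9 mitochondrial factors 3 rose and 2 fell with CC-115 in C4-2, led by the recycling factor MRRF (1.17 ± 0.14), and 2 rose and 3 fell in 22Rv1. With Enza 4 of the 16 signalling genes rose and 1 fell, led by DDIT4 (0.67 ± 0.16).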

How the data were processed

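RNA was measured in 29 libraries. The authors deposited raw counts per Ensembl feature in 1 table per line. The build is hg19 and the tools are STAR 2.5.2a, featureCounts 1.5.0-p3 and DESeq2 1.14.1, per the submitters' processing notes. The sources used here give no annotation release, strand setting or rule for reads that map more than once. Reads shared between overlapping features or copies can be lost in such counting.

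Groups came from sample titles. C4-2 libraries were fitted together, 22Rv1 libraries apart, and 11 libraries jointly for the difference between lines. Features passing filterByExpr (22860, 19392 and 22922) were TMM-scaled. The test was the quasi-likelihood one in edgeR 4.0.16, run with limma 3.58.1 under R 4.3.3. Calls required a Benjamini-Hochberg adjusted p under 0.05, and SE is the absolute log2 fold change over the square root of F. CPM are scaled by TMM, and levels per kb divide by exonic length. DESeq2 1.42.0, other scalings, no filter, fewer libraries and a replicate block were alternatives. Python 3.11.15, pandas 2.3.3, numpy 2.4.6 and matplotlib 3.10.9 were used. The method was tested on simulated data.

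The rule for named genes took the 6 largest rises and falls of a comparison among called members with average log2 CPM of at least 1 and groups that did not overlap, and a fixed set including EEF1A1, EEF2, EIF4E and the eIF4E-binding proteins. From lists of other translation genes it took the called genes with the largest changes. Further genes named to account for a list were chosen after their values were seen. Members and lists were chosen with earlier results of these data known. No pair of replicates agreed within counting error (chi-square over its degrees of freedom was 4.01 or more). Taken over features together, spread between libraries thus exceeded counting error, while low counts limit single genes such as EIF3CL. The promoter strings and starts use GRCh38.p14, and positions of genes use hg19.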

Additional observations from a re-analysis of the deposited data

Results flagged for a closer look

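The CC-115 effect differed between the 22Rv1 and the C4-2 libraries, by the test of the interaction, for 12 genes that the naming rule selected. Values are 22Rv1 minus C4-2 on the log2 scale (edgeR, adjusted p under 0.05). Line cannot be told apart from set of libraries here. In 22Rv1 2 CC-115 libraries stood against 3 Control libraries, and the SD over genes of the log2 difference between those 2 was 0.38. The effect was higher in 22Rv1 for EEF1D (1.15), EEF1A2 (0.74), EIF4EBP3 (0.70), EIF1 (0.61), EEF2 (0.49) and EIF3G (0.46). Without 22Rv1 CC-115 2 the calls of EEF2 (0.28), EIF3G (0.29) and EIF4EBP3 were lost, with adjusted p of 0.0644, 0.0708 and up to 0.106 by edgeR. It was lower in 22Rv1 for EIF3C (−1.42), EIF5B (−1.04), EEF1AKMT3 (−0.94), EIF2S1 (−0.86), EIF2AK3 (−0.83) and EIF4G3 (−0.77). The call of EIF5B was lost without 22Rv1 CC-115 2 and with no filter (adjusted p up to 0.121), and that of EIF2S1 with no filter (0.0931), as was that of EIF4EBP3. The EIF3C and EIF4EBP3 values carry the counting limit given above, since reads of a copy or an overlapping gene could be split. Small RNA took 15.9% and 17.3% of counts in the 22Rv1 CC-115 libraries and 10.9% to 11.9% in Control. With small and mitochondrial RNA removed each of the 12 genes was again called in the same direction, and 28.3% of all features were called, against 27.5% with all RNA kept.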

How the results depend on the processing

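Counts of members called moved by more than 1.5 times under these alternatives. Without Enza 1 and CC-115+Enza 1 there were 23 for NU7441, 42 for CC-223 and 17 for Enza against Ctrl, 2 for NU7441 and 43 for CC-223 on top of Enza, 46 for CC-115 against CC-223, and 3 and 1 for the interactions of CC-115 and CC-223 with Enza. Fitting only the groups compared gave 10 for NU7441, 41 for CC-223 and 2 for Enza against Ctrl, 14 for CC-115 on top of Enza and 49 for CC-115 against CC-223, where 13.8%, 47.5%, 5.36%, 39.3% and 63.8% of all features were called. With that fit the share of members called for CC-115 on top of Enza lay below that of all features, where with all groups fitted it lay above. DESeq2 gave 2 for NU7441, 13 for Enza and 1 for the interaction of CC-115 (5.24%, 18% and 4.54% of all features). For Enza, no filter gave 12 (8.51%) and removal of small and mitochondrial RNA 13 (18.6%). The cause of these moves was not tested.

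With each library of a comparison left out, counts were 0 for NU7441 (0.321% to 3.44% of all features), 38 to 40 for CC-115 (47% to 48.8%), 10 to 14 for CC-223 (15.8% to 21.1%) and 4 to 15 for Enza (7.67% to 21.2%) against Ctrl. On top of Enza they were 0 to 2 for NU7441 (0% to 4.96%), 33 to 42 for CC-115 (53.5% to 58.3%) and 13 to 24 for CC-223 (19.3% to 29.1%). They were 24 to 30 for CC-115 against CC-223 (35.7% to 37.2%) and 30 to 31 for CC-115 against NU7441 (42% to 44.3%). For the interactions they were 0 for NU7441 (0%), 0 to 1 for CC-115 (1.65% to 5.29%) and 0 for CC-223 (0.199% to 0.495%). In 22Rv1 they were 20 to 38 (24.5% to 43.9%), and 15 to 29 for the difference between lines (20.2% to 34.7%). For Enza the count was 4 without Enza 1, 15 without Enza 2 and 13 without Enza 3, and in 22Rv1 20 without Control 1, 22 without Control 2 and 23 without CC-115 2.

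Libraries with the same number share only that number: in none of 29 pairs of groups did every same-numbered pair correlate over 0.1 (range −0.363 to 0.297). With the replicate number as a block C4-2 had 41 members called for CC-115, 13 for CC-223 and 7 for Enza, and 22Rv1 had 30, where 52.5%, 21.9%, 13.8% and 43.3% of all features were called. An alternative chosen after seeing the data left out 10 members with shared or copied sequence, of which 8 were tested in C4-2, and kept EIF4A2. Of the 54 then tested in C4-2, 39 were called with CC-115 and 14 with CC-223, against 53.6% and 23.9% of all features. In 22Rv1 30 were called, against 40.9% of all features. Of 127 called values of single genes none reversed: 37 of 827 values under other settings and 83 of 821 with 1 library left out lost their call. EIF3F with CC-223 lost it under 8 settings, among them without each of the 6 libraries compared (adjusted p up to 0.167), and EIF6 in 22Rv1 under 7 settings (up to 0.185). Low counts limit EIF5A2 in 22Rv1 and EIF3CL, and members that were not called are not shown to be unchanged.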
